A study of Mus musculus with 6 samples.

Results

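The set described here holds 10 genes, *Dppa2*, *Dppa3*, *Dppa4*, *Dppa5a*, *Prdm14*, *Lin28a*, *Sall4*, *Nr0b1*, *Tdgf1* and *Gdf3*. They are developmental pluripotency associated genes and other markers of embryonic stem cells (ESCs) or of the germline that lie outside the core pluripotency factors. Members were taken by gene symbol, and all 10 were found among the 23420 symbols of the count files. The set was compared between WT E14 cells, a line of mouse ESCs, and *Patz1* -/- (KO) E14 ESCs, with 3 libraries per genotype and both genotypes kept in LIF with inhibitors of MEK and GSK3, the 2i condition. PATZ1 is a zinc finger protein with a BTB domain that the study examined as a boundary factor on chromatin. The KO lines were made in these cells by CRISPR, as several clones. Neither labels nor methods say how many clones the 3 KO libraries came from, so effects of the knockout and of a clone cannot be told apart, and the p-values measure only the spread between these libraries.

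The name Dppa groups genes by where they are expressed and not by what their proteins do. DPPA2 and DPPA4 are SAP-domain proteins that bind each other and sit on CpG-rich promoters, and they are known for switching on genes of the 2-cell embryo. DPPA3, also called Stella, marks primordial germ cells and oocytes and shields DNA methylation in the early embryo. DPPA5A is an RNA-binding protein with a KH domain. PRDM14 holds back FGF signalling and de novo DNA methylation in naive ESCs, LIN28A binds RNA and blocks the maturation of let-7 microRNAs, SALL4 is a zinc finger factor that can recruit the NuRD complex, and NR0B1 is an X-linked nuclear receptor that lacks the usual DNA-binding domain and acts mainly as a corepressor. TDGF1, also called Cripto, is a co-receptor for Nodal at the cell surface, and GDF3 is a ligand of the same family.

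Most of this set did not pass the test for a difference between KO and WT. *Dppa5a*, already by far the most abundant member, rose by a log2 fold change of 0.38, and *Dppa3*, the least abundant, fell by 1.08 on the log2 scale to 47.4% of its WT mean. The other 8 did not pass an adjusted p of 0.05 (Wald test of DESeq2, two-sided, Benjamini-Hochberg over all genes tested). Thus 2 of the 10 passed, 1 higher and 1 lower, where 7.49% of all 15309 genes tested passed, 2.70% higher and 4.78% lower. The median log2 fold change was 0.05 over the 10 genes and 0.01 over all genes tested. In 4 of the 10 the WT and KO libraries were fully separate, 3 with all KO libraries above WT and 1 with all below, against 25.6% of all genes tested (11.8% above and 13.8% below). At an unadjusted p under 0.05, 3 of the 10 passed, against 17.2% of all genes tested. Values of single libraries are given below in the order of replicates 1, 2 and 3.

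**Figure D1:**
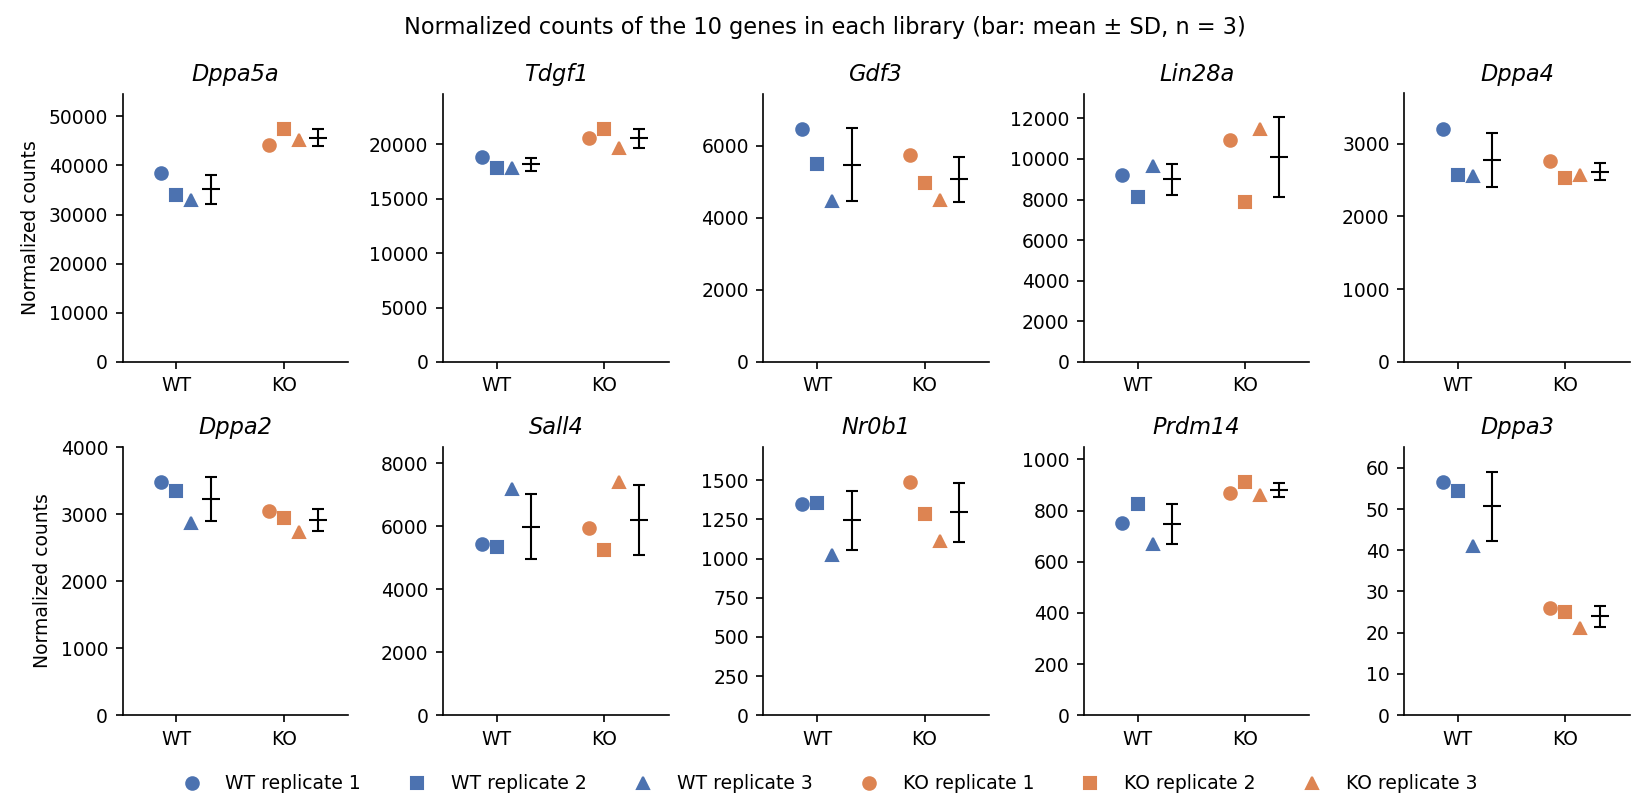
Normalized counts (counts divided by the size factor of the library, linear axis from 0) of each gene in 3 WT (blue) and 3 KO (orange) libraries, with the shape of the symbol for the replicate number and a bar for the mean ± SD (n = 3), ordered by WT level per kilobase. All KO points lie above all WT points for *Dppa5a*, *Tdgf1* and *Prdm14* and below them for *Dppa3*, and the 6 other genes overlap.

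Depth and cell identity were looked at first. Libraries held 37573923 to 47721070 counts in replicates 1 and 2 of both genotypes and 11040756 and 11420268 in replicate 3 of WT and KO. Replicate 3 also carried more of the ribosomal precursor *Rn45s*, at 12.5% to 14.4% of counts against 1.79% to 3.03% in the other libraries. *Patz1* RNA fell in every KO library, to 45.5% of the WT mean (log2 fold change -1.14 with an SE of 0.10, adjusted p 1.58e-26, DESeq2). By western blot the paper reports loss of the protein in its KO clones, so this RNA level does not measure PATZ1 protein. The 11 core and naive pluripotency factors used as ESC markers were all detected, and their summed normalized counts were 123400 to 126400 in WT and 133200 to 136000 in KO. Feeder and primitive endoderm markers were low. The 8 fibroblast markers summed to 232.7 to 260.6 normalized counts in WT and 277.5 to 290.6 in KO, with *Lum*, *Dcn* and *Postn* at 0 in all KO libraries. The 3 other tested genes of that list had log2 fold changes of -0.23 (*Col1a1*), -0.90 (*Col1a2*) and -0.16 (*Pdgfrb*), with a list median of -0.20, and *Thy1* rose (log2 fold change 0.83, adjusted p 0.0147), a call lost (adjusted p no longer under 0.05) without WT replicate 1 (0.248), WT replicate 2 (0.0518), KO replicate 1 (0.0683), KO replicate 2 (0.0912), without KO replicate 3 (0.0886) or without both replicate 3 libraries (0.0715). The 7 primitive endoderm markers summed to 132.7 to 188.9 in WT and 172.0 to 219.3 in KO, with *Gata6* at 5.70 and 5.63 normalized counts on average and *Foxa2* at 0 in all WT libraries and at 4.15 to 12.4 in KO. *Dab2* rose within it (log2 fold change 1.33, adjusted p 0.00191), a call lost without WT replicate 1 (0.077) or WT replicate 2 (0.0531). The other 5 of the 6 tested had log2 fold changes below 0, such as *Sox17* (-0.83), *Pdgfra* (-0.51) and *Gata4* (-0.17), and the list median was -0.15. The part of these markers in the differences below was not tested. In bulk libraries a change in the share of cells that express a gene and a change in its RNA per cell cannot be told apart. *Dppa3* is known to vary from cell to cell in ESC cultures.

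Levels within the set spanned a wide range. Per kilobase of merged exons, *Dppa5a* held 56800 ± 4807 normalized counts in WT (SD, n = 3), rank 12 of the 19163 detected symbols with a length. *Tdgf1* followed with 6926 ± 217 per kilobase, then *Gdf3* with 2263 ± 415 and *Lin28a* with 2252 ± 193. *Dppa4* had 1671 ± 224, *Dppa2* 1320 ± 134, *Sall4* 1082 ± 187 and *Nr0b1* 688 ± 105 normalized counts per kilobase. *Prdm14*, at 292 ± 30.3, and *Dppa3*, at 56.8 ± 9.42, closed the order. The WT libraries of *Gdf3* and *Lin28a* overlapped, as did those of *Dppa2* and *Sall4*, and the other neighbours in the order did not. In KO the order was the same except that *Lin28a* (2527 ± 489 per kilobase) stood above *Gdf3* (2092 ± 260), and this pair overlapped there too.

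Uniqueness of sequence differed between members, and several of these genes have retrocopies in the mouse genome. Of the distinct 50-base windows in the GENCODE transcripts of *Dppa5a*, 38.6% also occur in transcripts of another gene, among them the pseudogenes *Dppa5b* and *Dppa5c*. The share was 31.3% for *Dppa4*, 29.1% for *Dppa2* and 16.5% for *Dppa3*. It was 8.86% for *Tdgf1*, 7.64% for *Sall4*, 4.72% for *Lin28a* and 1.77% for *Gdf3*, and 0 for *Prdm14* and *Nr0b1*. Of the 9 genes that share windows with *Dppa5a*, only *Pigp* has a row of its own in the count files. How reads with several matches were counted was not stated, so the absolute levels of *Dppa5a*, *Dppa4*, *Dppa2* and *Dppa3* are uncertain.

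*Dppa2* and *Dppa4*, the chromatin partners, lie side by side on chromosome 16 (GRCm38, 48303908 to 48319723 and 48283733 to 48294237, both plus strand) with 9671 bases between them. Normalized counts of *Dppa2* were 3482, 3349 and 2861 in the WT libraries against 3051, 2941 and 2735 in the KO libraries. KO was lower in each pair of equal replicate number, while WT replicate 3 lay below KO replicates 1 and 2. The log2 fold change, -0.15 with an SE of 0.11, had an adjusted p of 0.54 (DESeq2), and its 95% interval allowed a KO level between 77.7% and 104.1% of WT. *Dppa4* had 3206, 2571 and 2555 normalized counts in the WT libraries against 2754, 2530 and 2561 in the KO libraries. Only WT replicate 1 stood apart, above the other 5 libraries. Here the log2 fold change, -0.09 with an SE of 0.12, had an adjusted p of 0.816 (DESeq2) with an interval of 80.3% to 110.0% of WT. No neighbour of the pair within 200 kb passed. One of them, *Morc1*, had a log2 fold change of -0.22 (adjusted p 0.471, DESeq2). With the replicate number as a block in the model *Morc1* passed (0.0245), where 14.6% of all genes tested passed.

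Genes of the 2-cell-like state, known to need DPPA2 and DPPA4, were looked at beside the pair. This list and the other gene lists were chosen with earlier results of these data known. Their counts beside the shares of all genes are therefore a description and no test of a list. Of 6 tested, 3 fell and 3 missed the threshold (*Zscan4c*, *Zscan4d* and *Zscan4f*, adjusted p 0.115, 0.0568 and 0.0994), where 7.49% of all genes tested passed and 4.78% fell, with a median log2 fold change of -2.48. *Tcstv3* had a log2 fold change of -2.88 (adjusted p 0.019, DESeq2), *Tcstv1* of -1.87 (0.0127) and *Zfp352* of -1.80 (0.0135). The list summed to 303.1, 1882 and 1216 normalized counts in WT and 72.2, 278.2 and 261.6 in KO, so WT replicate 1 was close to KO replicates 2 and 3. With edgeR, 1 of the 6 passed (*Tcstv3*, adjusted p 0.0454), where 6.41% of all genes tested passed. With limma-voom, 0 of the 6 passed (adjusted p 0.171 for *Tcstv3*, 0.112 for *Tcstv1* and 0.0713 for *Zfp352*), where 7.94% of all genes tested passed. At an unadjusted p under 0.05 all 6 passed with DESeq2, where 17.2% of all genes tested did. With the replicate number as a block in the model, which compares libraries of equal number, all 6 were lower, where 14.6% of all genes tested passed, 6.68% higher and 7.95% lower. Without WT replicate 1 all 6 passed, an increase from 3, while the calls over all genes went from 1146 to 605. *Tcstv1* and *Zfp352* were lost without WT replicate 2 (adjusted p 0.424 and 0.475), KO replicate 1 (0.228 and 0.14) or KO replicate 2 (0.109 and 0.184), and *Tcstv3* without WT replicate 2 (0.209), WT replicate 3 (0.12), KO replicate 1 (0.135), KO replicate 2 (0.078), without KO replicate 3 (0.0567) or without both replicate 3 libraries (0.208). Since *Zscan4* and *Tcstv* genes come in near-identical copies, the value of any single one is uncertain.

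*Dppa3* (chromosome 6, 122626410 to 122630272, plus strand) was the member with the deepest change. Its raw counts were 99, 77 and 15 in WT against 46, 42 and 8 in KO, and a floor of 3 counts corresponds to 1.69 to 8.21 normalized counts per library. Normalized counts were 56.6, 54.4 and 41.1 in the WT libraries against 26.0, 24.9 and 21.1 in the KO libraries. Every KO library was below every WT library, and the 3 pairs of equal number differed by -1.12, -1.13 and -0.96 on the log2 scale. The log2 fold change, -1.08 with an SE of 0.36, had an adjusted p of 0.0375 (DESeq2), with an interval of 29.1% to 76.9% of WT. The call was lost without WT replicate 1 (adjusted p 0.312), WT replicate 2 (0.269), KO replicate 1 (0.181), KO replicate 2 (0.228) or without KO replicate 3 (0.074), and kept without WT replicate 3 (0.0279), with log2 fold changes between -1.18 and -0.998.

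*Dppa3* sits in a stretch of chromosome 6 that holds other pluripotency genes, with *Gdf3* 16323 bases and *Nanog* 77217 bases away. Neither of these neighbours passed. *Nanog*, a core pluripotency factor, went from 14320 ± 1838 normalized counts to 14450 ± 1763 (log2 fold change 0.01, adjusted p 0.982, DESeq2), and *Slc2a3*, a glucose transporter, had a log2 fold change of 0.15 (adjusted p 0.44, and 0.041 with the replicate block). Of the 8 tested genes within 200 kb of *Dppa3*, 1 passed, where 7.49% of all genes tested passed. This was *Rimklb*, which fell from 1221 ± 47.4 to 883.7 ± 20.2 normalized counts (log2 fold change -0.47 with an SE of 0.10, adjusted p 0.000321).

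Among the DNA methylation genes and cofactors tied to DPPA3 and PRDM14, 1 of 11 tested passed, where 7.49% of all genes tested passed, with a median log2 fold change of 0.00. *Dnmt3l*, the cofactor of the de novo methyltransferases, rose by a log2 fold change of 0.53 with an SE of 0.15 (adjusted p 0.00953). Its normalized counts were 6514, 4388 and 5317 in the WT libraries against 8471, 6397 and 8557 in the KO libraries. KO was higher in each pair, although KO replicate 2 lay below WT replicate 1. The call was lost with edgeR (adjusted p 0.0863), limma-voom (0.0703) or both replicate 3 libraries left out (0.568), and without WT replicate 2 (0.159), KO replicate 1 (0.169) or without KO replicate 3 (0.0767). *Uhrf1*, the DPPA3 partner that brings the maintenance methyltransferase to DNA, had a log2 fold change of -0.19 (0.327 as adjusted p). The KO libraries of *Uhrf1* all lay below the WT libraries, as in 13.8% of the genes tested. In the same list *Ehmt2* was separate in that direction and *Dnmt1* in the other, and neither passed. *Uhrf1* was under the threshold with the replicate block (0.0108), which made 2 calls of 11 where it called 14.6% of all genes tested.

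*Dppa5a* (chromosome 9, 78367052 to 78368177, minus strand) was the member that rose. Normalized counts were 38552, 33925 and 32997 in the WT libraries against 44249, 47515 and 45195 in the KO libraries. The highest WT library stayed below the lowest KO library. KO held 129.9% of the WT mean, with an interval of 114.1% to 147.7% (log2 fold change 0.38 with an SE of 0.09, adjusted p 0.00223). Within pairs of equal number KO and WT differed by 0.20, 0.49 and 0.45 on the log2 scale. The call was lost without WT replicate 2 (adjusted p 0.0543) or without KO replicate 2 (0.0575), with log2 fold changes of 0.35 in both.

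A relative of *Dppa5a* rose beside it. *Ooep*, an oocyte gene of the same family of KH-domain proteins, lies 7932 bases away on chromosome 9 (78376109 to 78378725). It had 1576, 1287 and 1142 normalized counts in the WT libraries against 2348, 2481 and 1892 in the KO libraries. No WT library reached the KO range. The log2 fold change, 0.74 with an SE of 0.14, had an adjusted p of 1.06e-05 (DESeq2), and *Ooep* passed in all 13 alternative fits (other tools, scalings and filters, the replicate block and libraries left out). Of 9 tested genes within 200 kb of *Dppa5a*, *Ooep* was the 1 that passed, where 7.49% of all genes tested passed and 2.70% rose. The other 8 missed the threshold, with log2 fold changes from -0.21 to 0.35. Among them were *Eef1a1* (0.06), the elongation factor, and *Ddx43* (0.35, adjusted p 0.295), a helicase of the germline. With the replicate block *Gsta4* (adjusted p 0.0213) and *Mto1* (0.0354) also passed, where 14.6% of all genes tested passed in that fit.

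**Figure D2:**
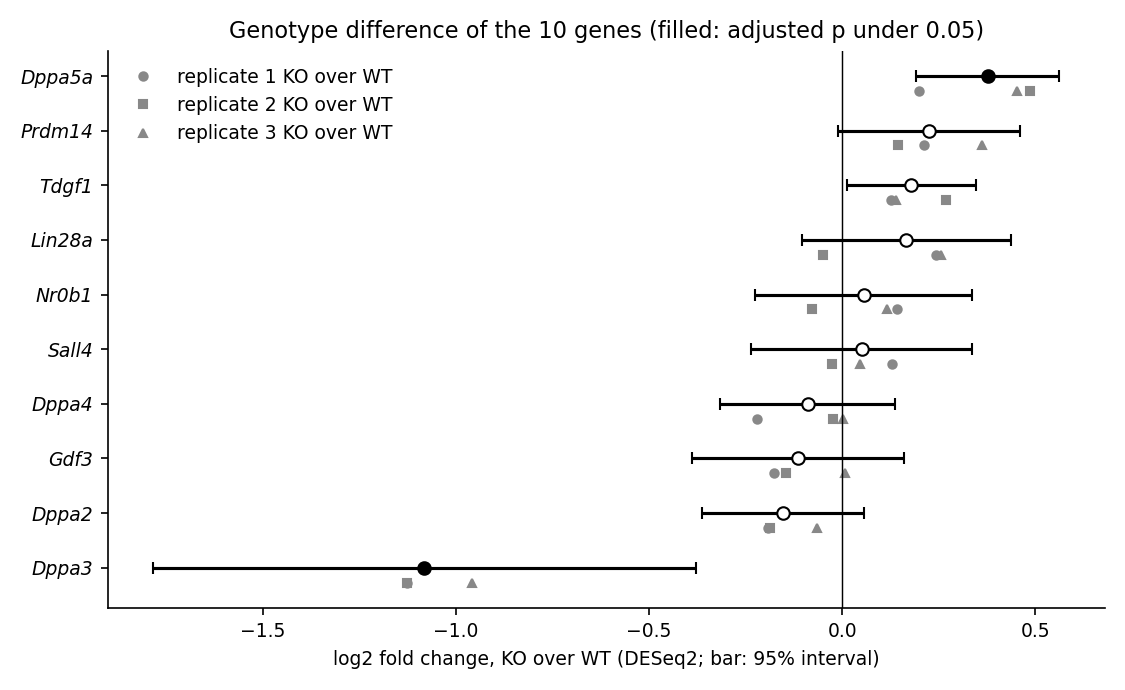
Log2 fold change (KO over WT, DESeq2) of each gene with its 95% interval, filled where the adjusted p was under 0.05, and below it in grey the 3 KO over WT ratios within pairs of equal replicate number. *Dppa5a* (0.38) and *Dppa3* (-1.08) are filled, and the intervals of all other members but *Tdgf1* cross 0.

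*Lin28a*, the second RNA-binding member (chromosome 4, 134003330 to 134018841), did not pass. Normalized counts were 9227, 8137 and 9630 in the WT libraries against 10927, 7869 and 11501 in the KO libraries. Replicate 2 was the lowest in both genotypes, and KO replicate 2 was below all WT libraries. The log2 fold change, 0.17 with an SE of 0.14, had an adjusted p of 0.646 (DESeq2), with an interval of 93.0% to 135.3% of WT. In the LIN28 and let-7 pathway list, 0 of 11 tested genes passed, 0 also with edgeR, where 7.49% and 6.41% of all genes tested passed, and the median log2 fold change was 0.00. At an unadjusted p under 0.05 the count was again 0, against 17.2% of all genes tested. With the replicate block, 2 of the 11 passed, where 14.6% of all genes tested did. These were *Trim71*, a let-7 target that is an RNA-binding ubiquitin ligase (log2 fold change 0.21, adjusted p 0.0233 with the block), and *Igf2bp1*, an mRNA-binding let-7 target (-0.15, 0.0244).

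The 3 transcription regulators *Prdm14*, *Sall4* and *Nr0b1* all missed the threshold. *Prdm14* (chromosome 1, 13113457 to 13127163) had 749.8, 826.2 and 670.8 normalized counts in the WT libraries against 868, 912.8 and 861.5 in the KO libraries. All KO libraries were above all WT libraries, as in 11.8% of the genes tested. The log2 fold change, 0.22 with an SE of 0.12, had an adjusted p of 0.329 (DESeq2), with an interval of 99.3% to 137.5% of WT. *Sall4* (chromosome 2, 168748332 to 168767943) had 5432, 5356 and 7182 normalized counts in the WT libraries against 5939, 5258 and 7413 in the KO libraries. Its 2 libraries of replicate 3 stood above the rest, and the genotypes overlapped (log2 fold change 0.05 with an SE of 0.15, adjusted p 0.932, interval 85.0% to 126.2% of WT). *Nr0b1* (X, 86191764 to 86195947) had 1351, 1357 and 1024 in WT and 1491, 1285 and 1110 in KO. Replicate 3 was the lowest in both genotypes (log2 fold change 0.06 with an SE of 0.14, adjusted p 0.92, interval 85.6% to 126.3% of WT).

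SALL4 partners were compared next. Among the *Sall* relatives and NuRD subunits, 2 of 14 tested rose and none fell with DESeq2, where 7.49% of all genes tested passed and 2.70% rose, with a median log2 fold change of 0.07. *Rbbp7*, a histone-binding NuRD subunit, rose from 15507 ± 257 normalized counts to 22128 ± 1135 (SD over 3 libraries, log2 fold change 0.51 with an SE of 0.09, adjusted p 2.11e-07). It lies on X (162760402 to 162779092), where 23.7% of 566 tested genes passed, 110 of them higher. *Chd4*, the NuRD remodeller, rose from 13813 ± 954 to 17102 ± 1032 (log2 fold change 0.31, adjusted p 0.0216). *Chd4* was lost with edgeR (adjusted p 0.0779), and without WT replicate 1 (0.141), WT replicate 2 (0.232), KO replicate 1 (0.171), KO replicate 2 (0.0504) or without KO replicate 3 (0.1). With the replicate block, 5 of the 14 passed, 4 higher and 1 lower, where 14.6% of all genes tested passed. The lower one was *Mta1*, a NuRD subunit (adjusted p 0.0163 with the block), which also passed with edgeR (0.0451). Next to *Sall4*, 5923 bases away, *Atp9a*, a lipid flippase gene, fell from 715.2 ± 90.7 to 493.7 ± 62.9 normalized counts (log2 fold change -0.53, adjusted p 0.00538), a call lost without WT replicate 1 (0.119), WT replicate 2 (0.111) or without KO replicate 1 (0.102).

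*Tdgf1*, the Nodal co-receptor (chromosome 9, 110939603 to 110946158, minus strand), had 18817, 17829 and 17833 normalized counts in the WT libraries against 20552, 21470 and 19646 in the KO libraries. The KO libraries lay above the WT libraries without overlap. The log2 fold change, 0.18 with an SE of 0.09, had an adjusted p of 0.237 (DESeq2), with an interval of 100.8% to 127.1% of WT. With the replicate block the value was again 0.18 and the adjusted p 0.00881, so that 3 of the 10 members passed in that fit, 2 higher and 1 lower, where 14.6% of all genes tested did. *Gdf3*, the ligand (chromosome 6, 122605403 to 122610087, minus strand), had 6484, 5493 and 4471 in WT and 5742, 4970 and 4495 in KO. Its values spread more within each genotype than between them, with replicate 3 the lowest in both (log2 fold change -0.11 with an SE of 0.14, adjusted p 0.799, interval 76.5% to 111.7% of WT).

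Of 12 other Nodal pathway genes tested, 2 fell and none rose, where 7.49% of all genes tested passed and 4.78% fell. The median log2 fold change of the 12 was -0.10. *Foxh1*, the DNA-binding partner of the SMADs, fell from 890.8 ± 23.5 to 692.8 ± 18.3 normalized counts (log2 fold change -0.37, adjusted p 0.0158, DESeq2). *Pcsk6*, a convertase that processes Nodal, fell from 1478 ± 100 to 1201 ± 8.25 (log2 fold change -0.31, adjusted p 0.0448). *Foxh1* was lost without WT replicate 1 (adjusted p 0.15), WT replicate 2 (0.111), KO replicate 1 (0.132) or without KO replicate 2 (0.193), and *Pcsk6* without any 1 library but WT replicate 3 (0.0954 to 0.326). *Pcsk6* was also lost with TMM size factors (adjusted p 0.0515) and with no independent filtering (0.0566). *Lefty2*, a Nodal antagonist and target, just missed (log2 fold change -0.49, adjusted p 0.0525) and passed with the replicate block (5.75e-10). Around *Tdgf1* itself, 2 of 9 tested genes within 200 kb passed, both lower, where 7.49% of all genes tested passed and 4.78% fell. These were *Rtp3* (log2 fold change -1.14, adjusted p 0.00112, DESeq2) and *Prss50*, a testis protease (-0.97, 0.0309). The log2 fold changes of the 9 ran from -1.14 to 1.02. *Rtp3* was lost without WT replicate 1 (adjusted p 0.0618) or without KO replicate 2 (0.0638), and *Prss50* without WT replicate 1 (0.225), WT replicate 2 (0.225), KO replicate 2 (0.358), without KO replicate 3 (0.07), without both replicate 3 libraries (0.0736) or with edgeR (0.0519).

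Germ cells are the other context in which *Dppa3* and *Prdm14* are known. Of 9 germ cell genes tested, 1 rose, 2 fell and 6 did not pass, where 7.49% of all genes tested passed, and the median log2 fold change was 0.00. In the fit with the replicate block 4 passed, 1 higher and 3 lower, where 14.6% of all genes tested passed, and the call gained was *Ifitm3* (adjusted p 0.0055 with the block). *Tfap2c*, a factor of germ cell specification, rose from 292.3 ± 23.7 to 458.1 ± 67.9 normalized counts (log2 fold change 0.66, adjusted p 0.000919, DESeq2), a call lost without KO replicate 2 (0.076). *Dazl*, a germ cell RNA-binding protein, fell from 723.1 ± 67.2 to 450.8 ± 14.5 (log2 fold change -0.67, adjusted p 8.86e-06) and passed in all 13 alternatives. *Ifitm1*, a membrane protein of early germ cells, fell from 933.8 ± 180 to 581.6 ± 119 (log2 fold change -0.68, adjusted p 0.00215), and was lost without WT replicate 1 (0.0823), WT replicate 2 (0.0733) or without KO replicate 1 (0.0646).

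The core and naive factors gave 0 calls among 11 genes with DESeq2 and 0 with edgeR, where 7.49% and 6.41% of all genes tested passed. At an unadjusted p under 0.05 there was 1 (*Nr5a2*), against 17.2% of all genes tested. Their log2 fold changes ran from -0.09 for *Klf4* to 0.23 for *Nr5a2*, and 10 of the 11 were above 0. With the replicate block 3 passed, *Pou5f1* (log2 fold change 0.14, adjusted p 0.0405 with the block), *Nr5a2* (0.23, 0.0127) and *Zfp42* (0.15, 0.0298), where 14.6% of all genes tested passed and 6.68% were higher. Among 14 other ESC-enriched genes, 1 rose and 1 fell, where 2.70% of all genes tested rose and 4.78% fell, with a median log2 fold change of 0.02. The rise was that of *Ooep*. The fall was that of *Tex19.1*, a gene of ESCs and germ cells, from 4434 ± 361 to 3536 ± 93.3 normalized counts (log2 fold change -0.33, adjusted p 0.0152). The replicate block gave 4 calls of 14, 3 higher and 1 lower, where 14.6% of all genes tested passed. *Tex19.1* lies on chromosome 11, where 21.3% of 1260 tested genes passed and 255 of the 269 calls were lower in KO. It was lost without any 1 library but WT replicate 3 (adjusted p 0.0686 to 0.176).

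**Figure D3:**
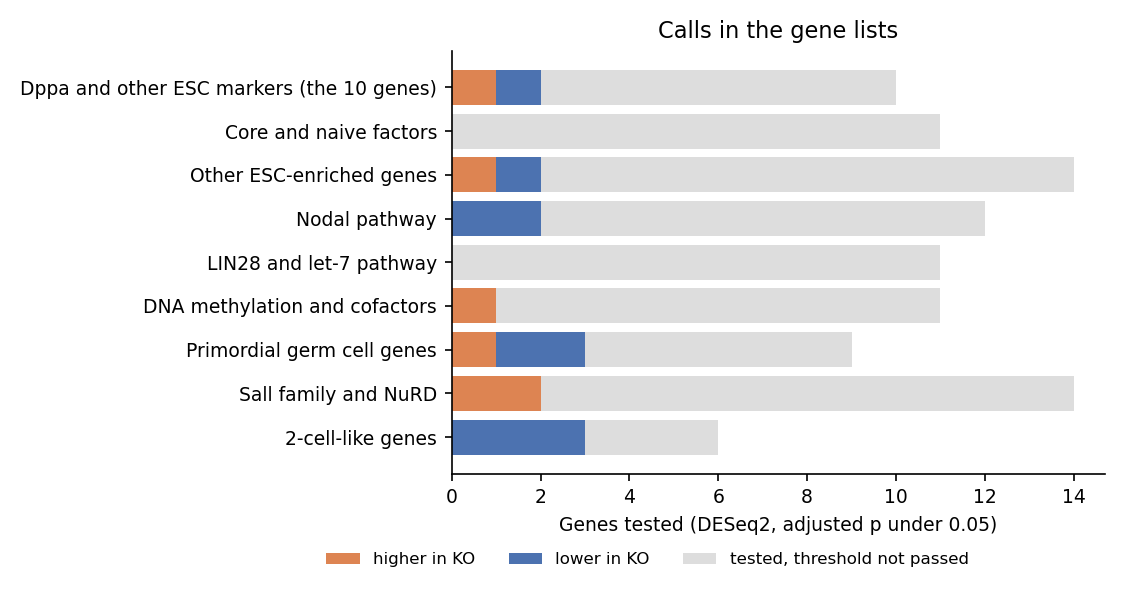
Number of tested genes in each list that were higher in KO (orange), lower in KO (blue) or past no threshold (grey), with DESeq2 and an adjusted p of 0.05. The core and naive factors and the LIN28 and let-7 list hold 0 calls, the 2-cell-like list 3 lower of 6, and the 10 genes described here 1 higher and 1 lower.

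Levels within the set also differed by replicate number. In 6 of the 10 genes the shift of replicate 3 from the mean of replicates 1 and 2, averaged over the genotypes, was larger than the genotype difference. *Sall4* was higher in replicate 3 by 0.41 (log2) in WT and 0.41 in KO, and *Lin28a* by 0.15 and 0.31. *Nr0b1* was lower in replicate 3, with shifts of -0.40 and -0.32, as was *Gdf3*, with -0.42 and -0.25. *Dppa5a* moved little with it, by -0.13 and -0.02, as did *Tdgf1*, by -0.04 and -0.10. Each gene shifted in the same direction in both genotypes. The part of depth and of ribosomal RNA in these shifts was not tested.

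**Figure D4:**
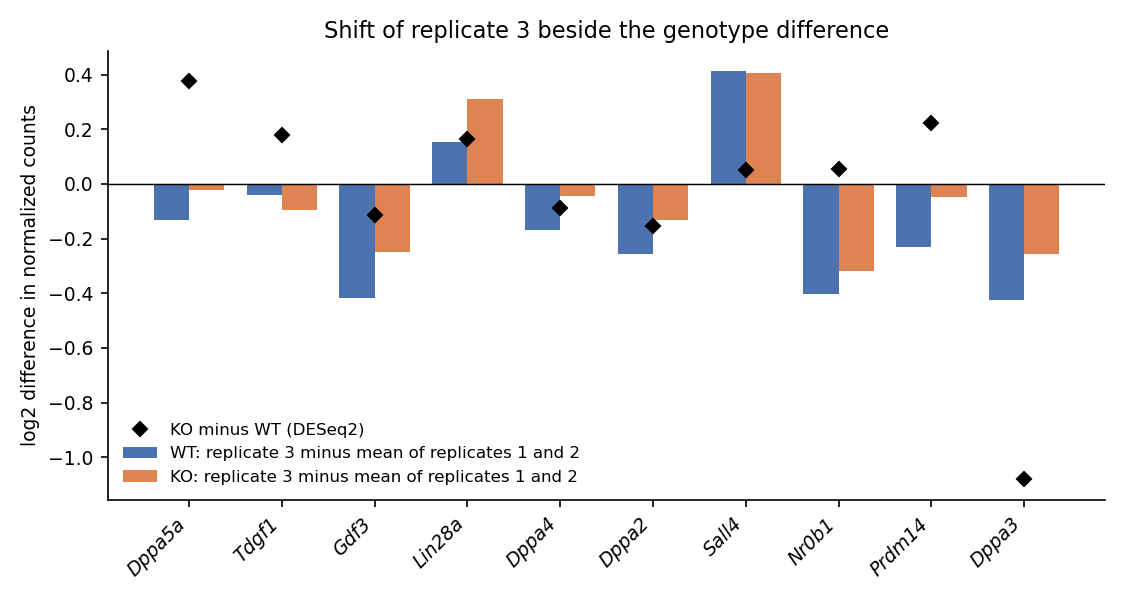
Log2 difference between replicate 3 and the mean of replicates 1 and 2 in WT (blue bars) and KO (orange bars), with the KO minus WT difference as a diamond. For *Sall4* both bars stand at 0.41 and the diamond at 0.05, whereas for *Dppa5a* and *Dppa3* the diamonds (0.38 and -1.08) lie beyond the bars.

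Genes with the most similar pattern to the changed pair were looked up as a description. Over the 6 libraries, log2(normalized count + 1) of *Dppa5a* was most alike to that of *Lgals1* (Pearson r 0.994), *Stx17* (0.994) and *Maoa* (0.990), among 11523 other genes with a mean of at least 50 normalized counts. *Dppa3* was most alike to *Tm7sf3* (r 0.998), *Galnt6* (0.996) and *Myo1g* (0.996) among the 11524 genes past that mean. Of these, *Stx17* (adjusted p 0.29, DESeq2) and *Tm7sf3* (0.17) did not pass the test of KO against WT, and the others did. The highest of so many correlations over 6 libraries can be near 1 by selection alone. The 6 libraries share genotype and replicate number, and no p was computed for these values.

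**Figure D5:**
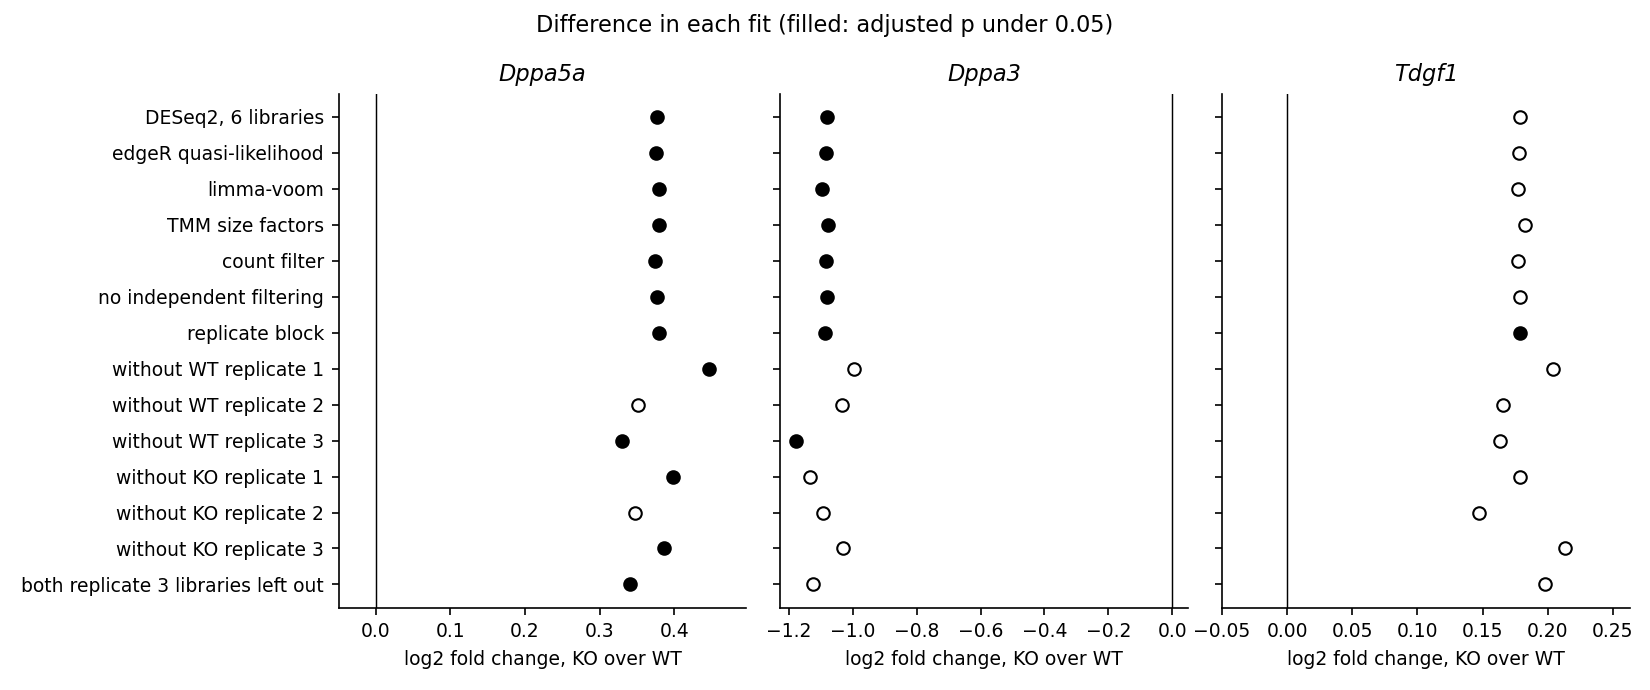
Log2 fold change of *Dppa5a*, *Dppa3* and *Tdgf1* in each fit, filled where the adjusted p was under 0.05. *Dppa5a* stays between 0.33 and 0.45 and is open without WT or KO replicate 2, *Dppa3* stays between -1.18 and -0.998 and is open in 6 of 13 alternatives, and *Tdgf1* is filled with the replicate block alone.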

How the data were processed

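Stranded libraries came from total RNA after removal of ribosomal RNA. The authors deposited raw read counts per gene symbol, 1 file per library, without normalization. The submitters' processing notes name TopHat2 (2.1.1), Bowtie2 (2.3.1.0) and featureCounts (1.6.2) with mm10. Gene annotation, strand setting and treatment of multiply matching reads are not given in the sources used here. Libraries were grouped by sample title. DESeq2 (1.42.0) was run on all genes with a Wald test of genotype alone, median-of-ratios size factors, default independent filtering and no shrinkage, at an adjusted p of 0.05, the test and threshold of the study. The 95% intervals come from the standard error. Alternatives were edgeR (4.0.16, quasi-likelihood), limma-voom (limma 3.58.1), TMM size factors, a block for replicate number, a filter of 10 counts in 3 libraries, turning off independent filtering, and fits without each library or without both replicate 3 libraries. The code was tested on simulated data.

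Positions and merged exon lengths are from GENCODE M21 (GRCm38, the build of mm10), with older symbols matched through RefSeq, for 23037 of 23420 symbols. Named genes are the 10 members, list genes and neighbours within 200 kb that passed, *Patz1*, *Pou5f1*, and for each member that passed the 3 genes of highest correlation. Other genes are named as examples chosen after their values were seen. Members and lists were chosen with earlier results of these data known. WT and KO libraries of equal replicate number were taken as pairs. After subtracting genotype means, they correlated at 0.469, 0.619 and 0.684 across 11524 genes. Libraries of unequal number correlated at 0.138 (WT replicate 2 and KO replicate 1) and 0.0766 (WT replicate 1 and KO replicate 2). Where 1 of the unequal libraries was of replicate 3, the values ran from -0.542 to -0.369. The pairing was taken from these correlations and from the numbers in the titles. All pairs of libraries differed by more than sampling noise.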

Additional observations from a re-analysis of the deposited data

How the results depend on the processing

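The number of the 10 genes under the threshold was 2 with edgeR, limma-voom, TMM size factors, the count filter and no independent filtering, as in the reported fit. It was 3 with the replicate block, 1 with both replicate 3 libraries left out (*Dppa5a*, with *Dppa3* at an adjusted p of 0.0592) and 0 to 2 without 1 library. It was 0 without WT replicate 2 or KO replicate 2, with 3 genes at an unadjusted p under 0.05 in each. Across all 13 alternatives *Dppa5a* kept its direction with adjusted p-values from 4.53e-08 to 0.0575, *Dppa3* with 0.0184 to 0.312 and *Tdgf1* with 0.00881 to 0.703. Small differences turned direction without 1 library: *Dppa4* ranged from -0.146 (without WT replicate 3) to 0.0284 (without WT replicate 1), *Sall4* from -0.0915 (without KO replicate 3) to 0.1956 (without WT replicate 3), *Nr0b1* from -0.0584 (without KO replicate 1) to 0.1501 (without KO replicate 3), and *Gdf3* from -0.2409 (without WT replicate 3) to 0.0229 (without WT replicate 1), all log2. Of 88 genes tested, the pathway lists held 13 calls, 29 with the replicate block and 4 to 15 without 1 library. Of 39 tested, the neighbours held 5, 9 with the block and 2 to 5 without 1 library. All genes gave 1146 calls (7.49%), 2131 with the block (14.6%) and 583 to 1341 without 1 library. The cause of these moves was not tested. With the block, *Tdgf1* and *Pou5f1* (adjusted p 0.0405) were the calls gained among members and reference genes. *Dppa3* had the lowest counts of the 10 genes, 8 to 99 per library, and the part of depth in its calls was not tested.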
